A study of Mus musculus with 12 samples.

Results

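Macrophages with complement C1q transcripts but no transcript of the Kupffer cell genes Clec4f and Vsig4 were examined in single-cell RNA-seq of whole dissociated liver from 12 neonatal C57BL6/J mice, 6 naive controls and 6 with phlebotomy-induced anemia (PIA). They were selected on unique molecular identifiers (UMIs), the counted transcripts of each cell barcode. Barcodes with 1500 to 50000 UMIs, of which no more than 20% were mitochondrial, were kept. It was a member when C1qa, C1qb and C1qc together had at least 4 UMIs, Clec4f and Vsig4 had 0, and Ptprc, Csf1r and Lyz2 together had at least 1. The endothelial genes Stab2 and Clec4g and the lymphocyte genes Cd79a and Cd3e had to be at 0, and the adult globins (Hba-a1, Hba-a2, Hbb-bs, Hbb-bt) under 10% of UMIs. The rule gave 1594 cells of 134208 kept, called marker-negative macrophages here: 221 in controls, with 24 to 51 per mouse, and 1373 in anemia, with 43 to 810 per mouse. The cells that met the same rule but had at least 1 UMI of Clec4f or Vsig4, called Kupffer-marker macrophages, numbered 6956, 4119 in controls and 2837 in anemia.

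PIA pups lost 20 µL of blood per g body weight from the facial vein every 2 days from postnatal day 2 to day 10, in 5 draws, to bring the hematocrit to 20 to 24%. Control pups had a daily needle stick without blood loss. The livers of both groups were collected on postnatal day 11 by the study's methods, while its drawing of the workflow has day 10. No surface marker was used to sort the cells, and all 12 libraries carry the same batch label.

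C1q is the recognition component of the classical complement pathway, and in tissues macrophages are its main source. Mouse Kupffer cells, the resident macrophages of the liver sinusoids, are marked by the lectin Clec4f and the complement receptor Vsig4. The liver also holds macrophages of the capsule, the portal tracts and the large veins that lack Clec4f, and monocytes that enter the liver can differentiate into macrophages and take up the Kupffer cell program.

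Each library held 46252146 to 74545930 UMIs, and the marker-negative macrophages of a mouse had a median of 3834 to 5549 UMIs per cell, against 4508 to 9666 in Kupffer-marker macrophages and 2211 to 2759.5 in B cells, taken as cells with at least 3 UMIs of Cd79a, Cd79b and Ms4a1 and none of C1q. No marker-negative barcode was shared between libraries. Of the kept barcodes, 2107 occurred in more than 1 library, with a median of 33 for a pair of libraries. No doublet caller was run. Among cells with the same B cell transcripts and any number of C1q UMIs, 282 of 11962 in controls and 188 of 9185 in anemia reached 4 C1q UMIs. The libraries anemia 2 and anemia 3 stood apart: cells with at least 2 UMIs of the monocyte genes Ccr2 and Ly6c2, at least 1 of Csf1r and none of C1q made up 13.4% and 4.90% of their kept cells, and 0.535 to 1.67% in the other 10 mice. These monocyte cells also had no UMI of the granulocyte genes Elane, Mpo, Ngp, Camp and Ltf, and adult globins under 10% of UMIs. Clec4f, Vsig4, Stab2, Clec4g, Cd79a and Cd3e were absent from them as well. Their definition was chosen after the values were seen. Because anemia 2 and anemia 3 stood apart, most shares and list medians are also given without both mice.

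The name of these cells was checked against genes the rule did not use. At least 1 UMI of Cd5l, Timd4 or Marco, which are Kupffer cell genes outside the rule, was found in 37.5 to 73.4% of marker-negative macrophages per mouse. The share was 3.63 to 19.8% in B cells and 97.5 to 99.4% in Kupffer-marker macrophages. B cells give a low estimate of free RNA, since they were taken without C1q UMIs and had fewer UMIs per cell. So the cells lacked Clec4f and Vsig4 by selection, but many of them carried other Kupffer cell transcripts. When the Kupffer-marker macrophages were thinned to 1500 UMIs per cell, 1.20 to 3.26% of them lost every Clec4f and Vsig4 UMI in controls and 3.64 to 38.8% in anemia. The highest values were 38.8% in anemia 2 and 18.1% in anemia 3, where the Kupffer-marker macrophages had a median of only 5 and 8 UMIs of both genes together, against 18 to 23 in the other 10 mice. Just inside the rule, 13 control and 76 anemia cells had exactly 4 C1q UMIs. Just outside it, 23 and 127 cells had 3 C1q UMIs, and 49 and 197 cells had exactly 1 UMI of Clec4f or Vsig4.

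The rule genes themselves are given as levels only, in CPM, the UMIs of a gene per 1000000 summed UMIs of these cells in a mouse. C1qb ran from 1794 to 3221 CPM over the 12 mice and Csf1r, the receptor for the macrophage growth factor, from 629.6 to 1056 CPM. Lyz2, which encodes lysozyme, ran from 2140 to 13841 CPM, with the highest value in anemia 6, and lay above the Kupffer-marker macrophages in 12 of 12 mice. Of the 14 genes of the pan-macrophage list with at least 50 CPM, such as Tyrobp, Fcer1g and Ctss, 2 were higher and 5 lower than in Kupffer-marker macrophages in every mouse, with a median log2 ratio of -0.29.

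The first comparison asked whether these cells were more frequent in PIA. In anemia they formed a larger part of the C1q macrophages, that is of the marker-negative and Kupffer-marker macrophages together. Their share was 3.04% in the lowest control, 4.86% at the median and 8.80% in the highest, and 8.44%, 18.5% and 59.8% in anemia. Of the 6 anemia mice, 5 lay above every control, and anemia 1, at 8.44% (95% exact Clopper-Pearson interval 6.35 to 11.0), lay below control 3, at 8.80% (6.54 to 11.5). The difference of the medians was 13.6 percentage points, with a p of 0.00433 in the exact Mann-Whitney test (two-sided) and an adjusted p = 0.0303 over the 7 shares tested. The intervals cover counting error only.

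The rise was carried mainly by anemia 2, anemia 3 and anemia 6, at 59.8%, 38.6% and 25.8%, while anemia 4 and anemia 5 were at 11.2% and 9.13%. Without anemia 2 and anemia 3 the difference was 5.3 percentage points (exact p = 0.019, adjusted p = 0.0667), and without any one of anemia 2, anemia 3 or anemia 6 it was 6.33. With a single mouse left out, the adjusted p passed the threshold only without control 3 or anemia 1 and was 0.053 to 0.0606 without any one of the other 10. In cells thinned to 1500 UMIs before the rule was applied, the groups did not overlap, at 3.26 to 7.30% and 8.2 to 66.2%. The exact p of 0.00216 (adjusted p = 0.0152) is the smallest that 6 against 6 mice can give. The thinned cells are not the same population, since UMIs that excluded a cell at full depth could be lost. Thinning removed every Clec4f and Vsig4 UMI from 1.2 to 3.26% of Kupffer-marker macrophages in controls and 3.64 to 38.8% in anemia. Kupffer-marker macrophages made up 5.43 to 7.43% of kept cells in controls and 3.48 to 4.91% in anemia, without overlap, and the share of marker-negative cells among C1q macrophages moves with that denominator.

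As a share of all kept cells, marker-negative macrophages were at 0.211%, 0.336% and 0.524% in controls (lowest, median, highest) and 0.410%, 0.884% and 6.39% in anemia. Anemia 2, anemia 3 and anemia 6 lay above all controls, at 6.39%, 2.19% and 1.30%, and the other 3 anemia mice overlapped with them. The exact p was 0.026 and the adjusted p 0.0606, which misses the threshold. With cells of high globin content left out of the denominator, the exact p was 0.00216 and the adjusted p 0.0152. Those cells numbered 45 to 646 per control mouse and 869 to 3130 per anemia mouse, so leaving them out raises the shares in anemia more. Without anemia 2 and anemia 3 the difference of the medians fell from 0.548 to 0.124 percentage points (exact p = 0.114, adjusted p = 0.16).

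**Figure D1:**
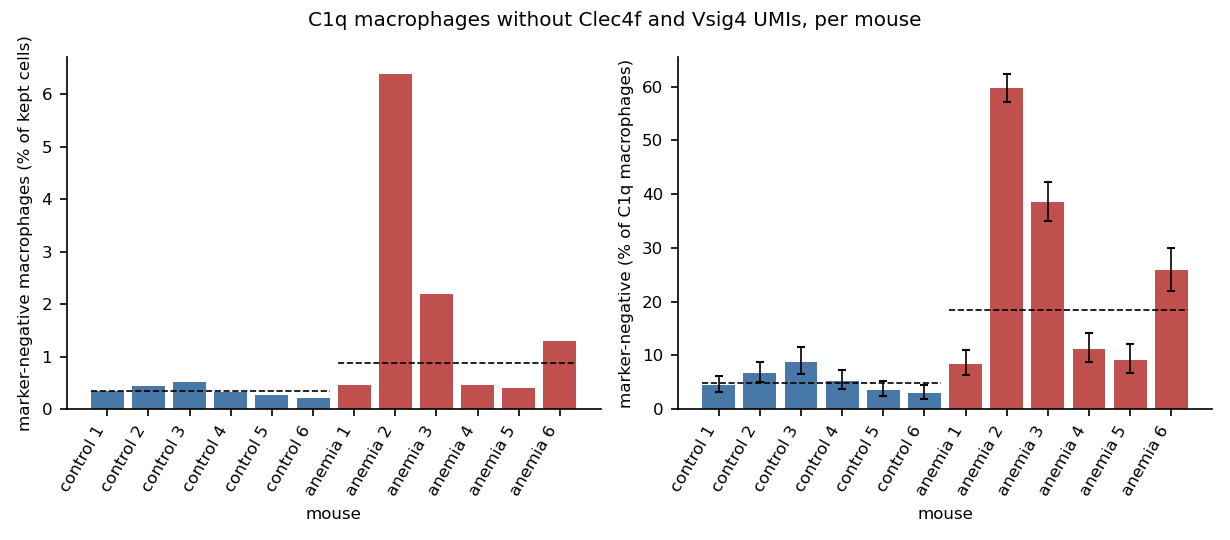
Marker-negative macrophages of each mouse as percent of kept cells (left) and as percent of C1q macrophages (right, with 95% exact Clopper-Pearson intervals for counting error), with blue bars for controls, red bars for anemia and dashed lines at the group medians. In the right panel anemia 2 reaches 59.8% and anemia 3 38.6%, while the controls range from 3.04 to 8.80%.

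The share was also compared within ranges of depth. Among C1q macrophages with 3000 to just under 6000 UMIs, the share of marker-negative cells was 3.35 to 10.5% in controls and 13.4 to 78.5% in anemia, with all 6 anemia mice above the highest control. At 1500 to just under 3000 UMIs the ranges overlapped, at 5.32 to 10.3% and 3.88 to 59.2%. At 6000 to just under 12000 UMIs they were 1.81 to 7.75% and 3.81 to 59.3%, with 3 anemia mice above the highest control. From 12000 UMIs on, where a mouse had as few as 3 C1q macrophages, the ranges overlapped at 0 to 11.1% and 0 to 21.7%.

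The second comparison set the marker-negative cells of each mouse beside its Kupffer-marker macrophages. Because the rule separated both sets by Kupffer genes, the ratios describe the sets and carry no test. Of 3751 genes with at least 50 CPM, 349 (9.3%) were higher in the marker-negative cells in every one of the 12 mice and 454 (12.1%) were lower. Ratios are medians of the 12 within-mouse log2 ratios, with 10 CPM added to both values.

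The genes with the highest ratios belong to matrix, clotting and lipid mediator functions. Prg4, which encodes the lubricating glycoprotein lubricin, had 18 to 3075 CPM against 2.42 to 56.0 in Kupffer-marker macrophages, a log2 ratio of 4.69. Fn1, the matrix protein fibronectin, had 88.1 to 6517 CPM against 34.4 to 187.7, a ratio of 4.39. F13a1, the A subunit of clotting factor XIII, had 25.4 to 1040 CPM against 0.239 to 30.0, a ratio of 3.97. In these genes anemia 2 was the lowest mouse, and Prg4 and Fn1 were highest in anemia 6. Thbs1, the matrix glycoprotein thrombospondin 1, had 230.2 to 1480 CPM against 17.7 to 59.0, so that the ranges did not overlap.

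Alox15 and Ltc4s, enzymes that make lipid mediators from arachidonic acid, had log2 ratios of 3.8 and 3.4, and Ednrb, an endothelin receptor, had 3.9. Fcgr2b, the inhibitory receptor for immunoglobulin G, was the most even of the leading genes. It had 155.0 to 249.3 CPM in the 12 mice against 5.65 to 15.4 in Kupffer-marker macrophages, and its lowest within-mouse ratio was 2.83. Mctp1, a calcium-binding membrane protein, had a ratio of 3.4.

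Antigen presentation genes formed the next group. Of 6 measured genes of the MHC class II and dendritic list with at least 50 CPM, 5 were higher in 12 of 12 mice and none lower, with a median log2 ratio of 2.19. H2-Aa, a class II chain, had 719.8 to 4153 CPM against 96.1 to 1137, a ratio of 2.46. Cd74, the class II invariant chain, had 4225 to 26452 CPM against 557.7 to 5726, a ratio of 2.46. Both were highest in control 2. B cells share these genes, and at least 1 Cd74 UMI was found in 74.1% of them.

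From the monocyte list, 3 of 5 genes with at least 50 CPM were higher in 12 of 12 mice and none lower, with a median log2 ratio of 3.29. Ccr2, the chemokine receptor that draws monocytes into tissue, had 99.8 to 185.1 CPM against 0.299 to 15.7, a ratio of 3.29. Its control median was 554.4 CPM in the C1q-free monocyte cells, whose selection on Ccr2 and Ly6c2 raises this level. Ly6c2 had 6.09 to 257.4 CPM and Plac8 31.7 to 1422 CPM, both highest in anemia 2, and did not differ in one direction in all mice.

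Among tissue macrophage genes, 7 of 14 were higher in 12 of 12 mice and 1 lower, with a median log2 ratio of 1.45. Lyve1, a hyaluronan receptor, had a ratio of 2.46, Cbr2, a carbonyl reductase, 2.99, Cd9, a tetraspanin, 2.24 and Ms4a7 1.05. Mrc1, the mannose receptor, was not among them, with 76.7 to 1167 CPM against 287.8 to 1354 and a ratio of -0.78. Complement genes were split, with 4 higher and 2 lower in every mouse of 13 measured. C5ar1 and C3ar1, receptors for complement fragments, had ratios of 1.48 and 0.90. C6, a component of the membrane attack complex, had the lowest ratio of the genes outside the rule that were lower in every mouse.

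C6 had 0 to 26.6 CPM against 215.2 to 516.3 in Kupffer-marker macrophages, a log2 ratio of -4.11. The Kupffer genes outside the rule were lower as a group: of 14, 12 were lower in 12 of 12 mice and none higher, with a median log2 ratio of -1.81. Clec1b, a receptor for podoplanin, had 8.88 to 88.0 CPM against 266.7 to 401.8, a ratio of -3.27. Cdh5, a cadherin, had a ratio of -2.90. Cd5l, a secreted scavenger protein, had 115.4 to 716.3 CPM against 2030 to 3889, a ratio of -2.38. Neither Cd163, a receptor for hemoglobin and haptoglobin (ratio 0.17), nor Pltp, a phospholipid transfer protein (ratio -0.15), was lower in all mice. The other leading genes on this side were Pcolce2 (-3.66), Tspan15 (-3.07), Pde1c (-3.07), Paqr9 (-2.93), Ccdc148 (-2.88), Ksr2 (-2.85) and Acot1 (-2.84).

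Genes of heme and iron handling were also lower on balance. Of 16 measured, 9 were lower and 2 higher in 12 of 12 mice, with a median log2 ratio of -0.73. Hmox1, which breaks down heme, had 133.2 to 403.2 CPM against 622.7 to 1138, a ratio of -1.90. Slc40a1, the iron exporter ferroportin, had 160.4 to 560.5 CPM against 817.7 to 1794, a ratio of -1.78. Fth1, the ferritin heavy chain, went the other way, with a ratio of 0.35 and higher values in 12 of 12 mice. Vcam1, an adhesion molecule of the erythroblastic island list, had 22.9 to 248.6 CPM against 412.5 to 1161, a ratio of -2.69. Of 22 efferocytosis and lysosome genes, 9 were lower and 1 higher in every mouse, such as the receptor Mertk (-1.16) and the protease Lgmn (-1.14).

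**Figure D2:**
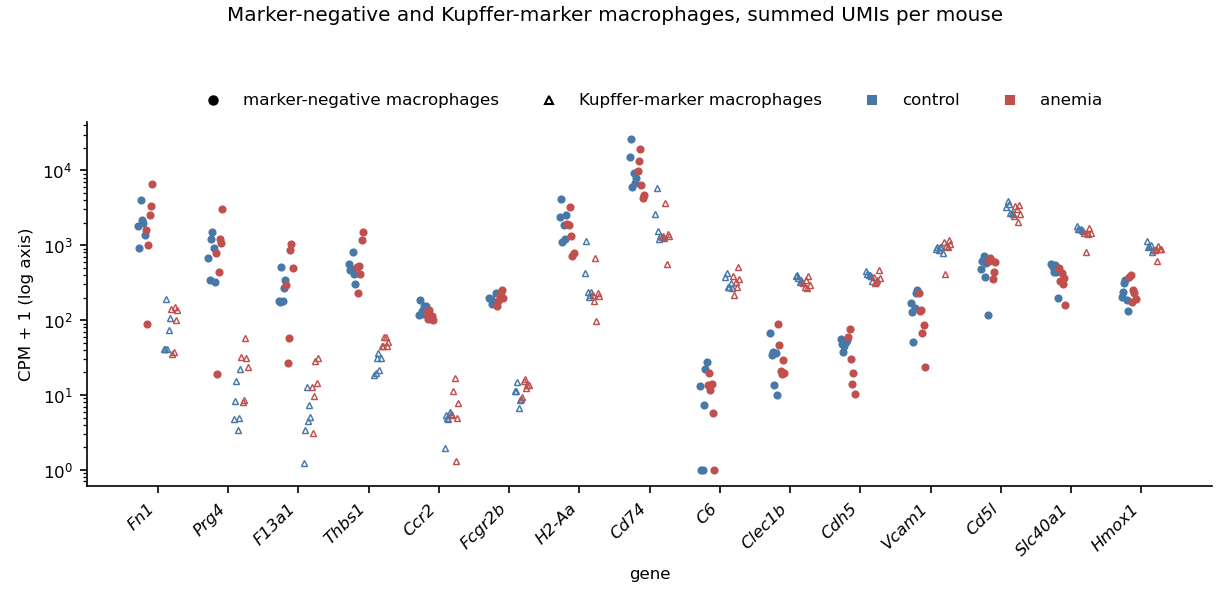
Levels of 15 genes in marker-negative (filled circles) and Kupffer-marker macrophages (open triangles), as CPM + 1 on a log axis, with 1 symbol per mouse, controls in blue and anemia in red. Fn1, Prg4, F13a1 and Ccr2 lie higher in the marker-negative cells and C6, Clec1b, Cdh5 and Vcam1 lower, with the widest spread among mice in Prg4, which runs from 18 to 3075 CPM.

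The marker-negative macrophages were not uniform. A set of 269 cells had at least 2 UMIs of Fn1, Prg4 and Alox15 together, a threshold and a gene choice made after their values were seen. As background, Prg4, Alox15 and Fn1 are known genes of the resident macrophages of the peritoneal cavity. The set took 5.88 to 46.8% of the marker-negative cells in controls (median 28.0) and 4.94 to 68.5% in anemia (median 24.6). Anemia 6 was highest and anemia 2 lowest, and the groups overlapped throughout. In Kupffer-marker macrophages the same count of UMIs was found in 1.07 to 5.6% of cells and in B cells in 0.878 to 1.97%. In the C1q-free monocyte cells it was found in 41.5 to 65.3% in controls and 12.2 to 65.8% in anemia. So this count of UMIs was not particular to the marker-negative macrophages.

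MHC class II UMIs (at least 4 of H2-Aa, H2-Ab1, H2-Eb1 and Cd74) were found in 99 of these 269 cells (36.8%) and in 1039 of the other 1325 (78.4%). A UMI of Cd5l, Timd4 or Marco was found in 233 (86.6%) against 798 (60.2%). In controls alone the same shares were 27.1% against 67.9% for MHC class II and 91.5% against 41.4% for the Kupffer genes. In anemia 2 they were 80.0% against 81.7% and 67.5% against 68.4%, so that mouse did not show the split. The counts pool the cells of several mice and are a description.

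Since 85 of the 269 cells came from anemia 6 and 770 of the other 1325 from anemia 2, the levels of other genes were compared in the controls alone, summed over the 59 cells of the set and the other 162. Controls were also uneven: control 3 gave 22 of the 59 cells, and control 2 gave 3 of the 59 and 48 of the 162. So differences among mice enter these sums. Serpinb2, a protease inhibitor, was at 2780 against 0 CPM, and Retnla, a secreted protein of alternatively activated macrophages, at 1053 against 92.4 CPM. Cxcl2, a neutrophil chemoattractant, was at 12121 against 2572 CPM, and Timd4, a receptor for phosphatidylserine, at 512.3 against 138.6 CPM. On the other side stood Cd74, at 3188 against 16809 CPM, Slc40a1, at 53.8 against 647, and Vcam1, at 6.32 against 212.3. Serpinb2 and Retnla were named after their values were seen.

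Cells with MHC class II UMIs more often had monocyte genes. Ccr2 or Ly6c2 was found in 609 of 1138 (53.5%) of them and in 63 of the other 456 (13.8%), and in controls in 46.8% against 10.5%. Both readings move with the depth of a cell, which was not held fixed here.

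The shares of these states were then compared between groups over mice. The share with MHC class II was 36.2%, 55.6% and 84.3% in controls (lowest, median, highest) and 22.6%, 44.8% and 92.2% in anemia (exact p = 0.699), with a difference of -10.7 percentage points. The difference was -16.8 without anemia 2 and anemia 3, -1.12 after thinning to 1500 UMIs and, as a mean difference, -2.98 with the replicate block. It was -3.45 without control 1, control 2 or control 6, and -18.0 without control 3, control 4 or control 5. In cells free of a panel of transcripts of other cells it was -19.9. The share with Ccr2 or Ly6c2 was 25.5%, 32.4% and 35.3% against 15.3%, 22.6% and 53.1%, where anemia 2 and anemia 3 lay above all controls and the other 4 anemia mice below them (exact p = 0.394, adjusted p = 0.485). In cells thinned to 1500 UMIs, anemia 2 and anemia 3 were at 16.8% and 13.8%, inside the control range of 9.76 to 23.4%. No test is given for this share without both mice, since they stood apart by the same genes. In B cells that share was 1.77 to 12.1%. The share with Cd5l, Timd4 or Marco was 37.5%, 57.0% and 65.5% against 48.8%, 60.5% and 73.4% (exact p = 0.416, adjusted p = 0.485), and the difference turned from 3.46 to -1.23 percentage points without anemia 2 and anemia 3.

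Proliferation genes (at least 2 UMIs of Mki67, Top2a, Cdk1, Birc5, Ube2c and Cenpf) were found in 5.88%, 13.1% and 21.3% of the cells in controls and in 4.65%, 9.47% and 14.4% in anemia (exact p = 0.29, adjusted p = 0.485). The difference of the medians was -3.68 percentage points and the groups overlapped. It was -8.07 in cells with at least 3000 UMIs (exact p = 0.0649), -6.09 at a threshold of 2 C1q UMIs (exact p = 0.0411, adjusted p = 0.072) and -5.37 without anemia 2 and anemia 3 (exact p = 0.152).

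**Figure D3:**
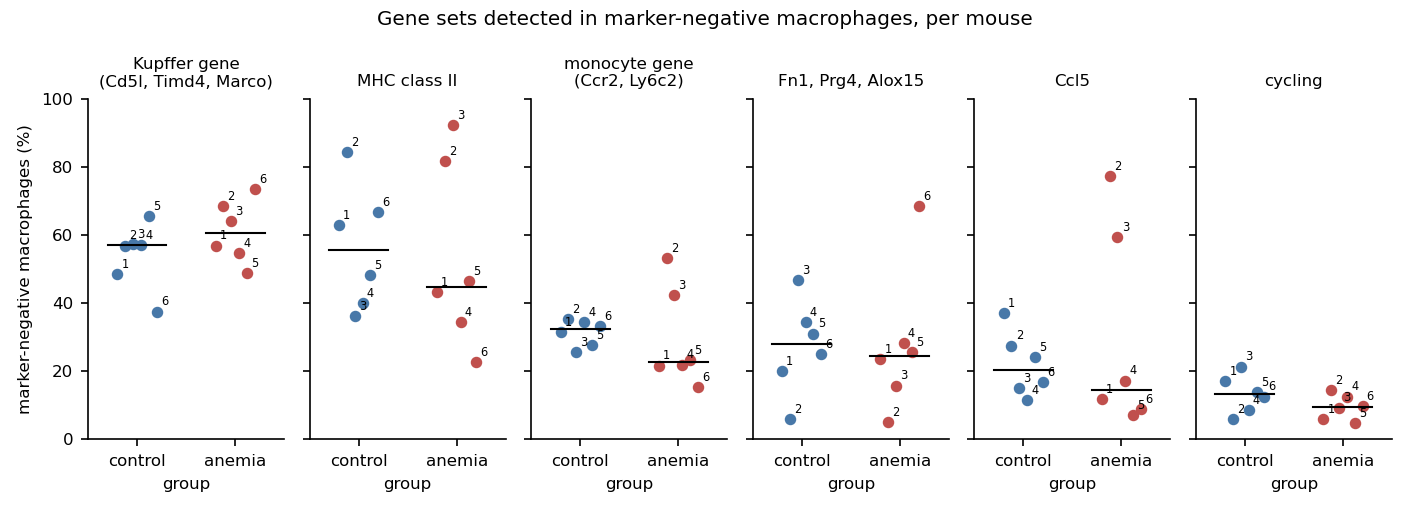
Percent of the marker-negative macrophages of each mouse in which each gene set was detected, with 1 point per mouse numbered by replicate and black lines at the group medians. Anemia 2 and anemia 3 are highest for Ccl5, at 77.3% and 59.4%, and anemia 6 is highest for the set with Fn1, Prg4 and Alox15, at 68.5%, and lowest for MHC class II, at 22.6%.

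Some genes differed widely among the mice of a group. Ccl5, a chemokine that draws T cells and monocytes, had 1645, 579.1, 319.9, 234.8, 218.8 and 426.2 CPM in controls 1 to 6 and 339.3, 5779, 3240, 275.2, 14.1 and 32.4 CPM in anemia 1 to 6. So anemia 2 and anemia 3 lay above every control while anemia 5 and anemia 6 lay below every control. At least 1 Ccl5 UMI was found in 77.3% of the marker-negative cells of anemia 2, in 66.9% of its Kupffer-marker macrophages and in 19.4% of its B cells. Of the 626 cells with Ccl5 in anemia 2, 581 had no UMI of the lymphocyte genes Nkg7, Cd3g, Cd3d and Trac.

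Fth1 was at 8925 to 11411 CPM in controls, 35123 CPM in anemia 2, 26921 in anemia 3 and 7283 to 12617 in the other anemia mice. The factor B gene Cfb, of the alternative complement pathway, was at 54.1 to 164.5 CPM in controls and at 865.2 and 555.9 CPM in anemia 2 and anemia 3, with 47.2 to 79.5 CPM in the rest. Sod2, a mitochondrial superoxide dismutase, and Marco, a scavenger receptor, were highest in the same mice, at 1248 and 564.7 CPM and at 1746 and 1646 CPM. Pf4, Mrc1 and Lyve1 were lowest there, with Mrc1 at 76.7 and 147.7 CPM against 379.7 to 914.6 in controls. Cfb, Sod2 and Pf4 were named after their values were seen. All these genes moved in the cells of the same libraries in which monocytes were frequent, and the part of those monocytes in the values was not tested.

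Anemia 6 held another combination. Its marker-negative cells had the highest Fn1 (6517 CPM), Prg4 (3075), Serpinb2 (3325), Cxcl2 (12788) and Lyz2 (13841) of the 12 mice and low Ccl5 (32.4). The stellate cell gene Ecm1 was also highest there, at 775.2 CPM, and its part in these values was not tested.

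**Figure D4:**
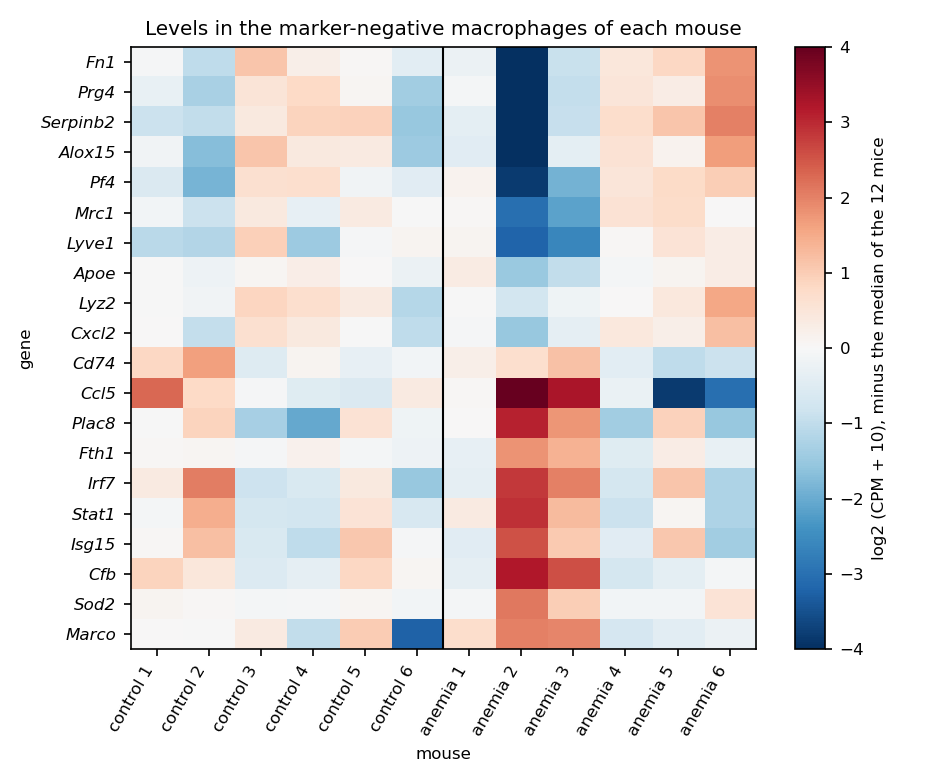
Levels of 20 genes in the marker-negative macrophages of each mouse as log2 (CPM + 10) minus the median of the 12 mice, with red above and blue below it and values past the ends of the scale drawn at its ends. The columns of anemia 2 and anemia 3 share low Fn1, Prg4 and Mrc1 and high Ccl5, Fth1 and Irf7, and the column of anemia 6 is high in Fn1, Prg4 and Serpinb2, genes that were chosen after their values were seen.

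Interferon response genes also differed among the mice of a group. Irf7, a transcription factor of this response, was at 158.4, 531.6, 63.1, 76.2, 162.3 and 35.5 CPM in controls 1 to 6 and at 92.2, 928.6, 525.0, 70.8, 272.9 and 45.8 CPM in anemia 1 to 6. Control 2 reached the level of anemia 3. The sum over the list was 1279 to 3436 CPM in controls and 5970, 3362 and 2931 CPM in anemia 2, anemia 3 and anemia 5, with 1368 to 1760 CPM in the other anemia mice. All 17 genes tested had a fold change above 0, with a median of 0.58 on the log2 scale against 0.04 over all genes, and none passed the test. Without anemia 2 and anemia 3 the median was -0.22 over 14 genes. The other 3 genes passed the filter on low counts only with these mice, in which the list was high, so the count of 17 partly restates the filter.

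The promoters of the list (250 bases before to 50 after the start, RefSeq, GRCm38.p6) were searched for the letters GAAANNGAAA, the core of the interferon-stimulated response element, on both strands with overlaps counted. The letters stood in 9 of the 14 listed genes with a promoter in the table (64.3%), in 0 of 12 Kupffer genes outside the rule and in 3.44% of all 32851 promoters. Windows of 30 bases are shown for the ubiquitin-like protein gene Isg15, for Ifit3, and for Ifit1, whose protein binds viral RNA. They are printed on the strand of the gene with the matching letters in capitals, which read TTTCNNTTTC where the match is on the opposite strand.
Isg15 at chr4:156200871-156200900, minus strand: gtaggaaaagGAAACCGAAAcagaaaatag
Ifit3 at chr19:34583397-34583426, plus strand: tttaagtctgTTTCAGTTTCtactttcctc
Ifit1 at chr19:34640794-34640823, plus strand: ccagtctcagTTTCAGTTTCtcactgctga
The matches begin at positions -72, -122 and -85 relative to the gene's start, and each promoter holds at least 1 further match. In these genes the marker-negative cells of anemia 2 were the highest of 12 mice, with Isg15 at 638.2 CPM against 44.4 to 246.8 in controls, Ifit3 at 145.5 against 6.35 to 113.9, and Ifit1 at 79.1 against 0 to 53.3. The matches describe the letters of the promoters only.

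The third comparison asked which genes of the marker-negative macrophages differed between anemia and control, with the UMIs of a mouse summed and edgeR's quasi-likelihood test fitted to all genes with enough UMIs, of which 9022 were not used by the rule. One gene was called at an adjusted p under 0.05 (0.0111%): Ttr, the plasma transport protein transthyretin of hepatocytes, was lower in anemia. At an unadjusted p under 0.05 in edgeR there were 457 of the 9022 genes, where chance alone would give about 1 in 20. DESeq2 called 8 genes and limma with voom and quality weights called 1. Groups that did not overlap were found for 12 genes higher (0.133%) and 21 lower (0.233%) in anemia.

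Ttr was at 425.2, 627.6 and 1279 CPM in controls (lowest, median, highest) and 110.1, 210.5 and 269.9 CPM in anemia, without overlap. Its log2 fold change was -1.63 (SE 0.27) with an adjusted p = 0.0306 in edgeR. The call was lost without both anemia 2 and anemia 3 (log2 -1.49, edgeR adjusted p = 0.0595) and without any one of control 3, control 5, anemia 2, anemia 3 and anemia 5 (0.0537 to 0.104). It was also lost at 8 or more C1q UMIs (0.0905), with Y-linked RNA as covariate (0.114) and under the purity condition (0.133). That condition kept cells free of a panel of lymphocyte, endothelial, stellate, granulocyte and erythroid transcripts. Its granulocyte genes were only Elane and Mpo, so cells with S100a8 or S100a9 could remain. The log2 fold change stayed between -1.92 and -1.39 in the 25 alternatives, with or without the call. Ttr UMIs were found in 67.4% of B cells, where the gene should be silent. Of 13 hepatocyte genes tested, 12 had a fold change below 0, with a median of -1.22 (-1.18 without anemia 2 and anemia 3), and the list summed to 3327 to 10390 CPM in controls and 1466 to 6027 CPM in anemia. In the Kupffer-marker macrophages of the same mice the list had a median of -0.85. It summed there to 3644 to 5992 CPM in controls and 979.4 to 4519 CPM in anemia, so the fall was not particular to the marker-negative cells. The part of free hepatocyte RNA in the Ttr result was not tested.

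**Figure D5:**
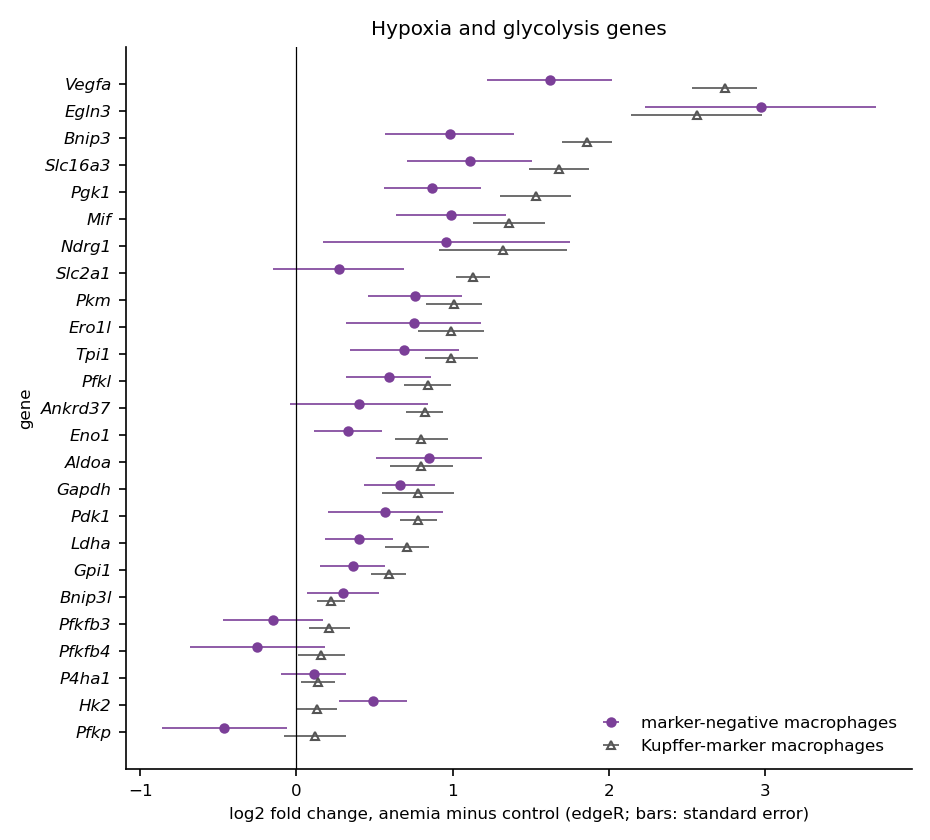
Log2 fold change of anemia over control (edgeR, bars for 1 standard error) of 25 hypoxia and glycolysis genes in marker-negative (circles) and Kupffer-marker macrophages (triangles) of the same mice. In marker-negative cells 22 of 25 values lie above 0 with a median of 0.59, and in Kupffer-marker macrophages the median is 0.82. Without anemia 2 and anemia 3 the median in marker-negative cells is 0.08 over the 21 genes that still pass the filter on low counts.

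Genes of hypoxia and glycolysis, many of which are induced when oxygen is low, mostly had values above 0. In marker-negative macrophages 22 of 25 had a fold change above 0, with a median of 0.59 against 0.04 over all genes, and none was called. In the Kupffer-marker macrophages of the same mice 16 of the 25 were called higher, against 0.789% of the 13051 genes tested there, with a median of 0.82. Without anemia 2 and anemia 3 the median in marker-negative cells was 0.08 over 21 genes. The remaining genes passed the filter on low counts only with these mice, in which the list was high. So the count of 22 of 25 partly restates the filter. The sum over the list was 4817 to 5696 CPM in controls, 12946 CPM in anemia 2, 9987 in anemia 3 and 4893 to 5849 in the other 4 anemia mice.

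Vegfa, the vascular growth factor, had 24.4, 19.0, 13.5, 6.35, 7.06 and 8.88 CPM in controls 1 to 6 and 67.0, 42.2, 55.7, 23.6, 32.9 and 22.9 CPM in anemia 1 to 6. Of the anemia mice, 4 were above the highest control and the other two lay just below it. The log2 fold change was 1.62 (SE 0.40, edgeR adjusted p = 0.383), and 2.74 (SE 0.21, adjusted p = 3.78e-05) in Kupffer-marker macrophages. Egln3, an oxygen-sensing prolyl hydroxylase, had 0 to 7.06 CPM against 4.70 to 24.2 CPM, with 5 anemia mice above all controls. The marker-negative cells summed to 112611 to 221964 UMIs per control mouse, so the control values of Vegfa and Egln3 rest on few UMIs.

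Pgk1, a glycolytic kinase, had 101.5 to 223.1 CPM in controls and 168.5 to 602.5 CPM in anemia, a log2 fold change of 0.87 (SE 0.31, edgeR adjusted p = 0.864) against 1.53 (SE 0.23, adjusted p = 0.00726) in Kupffer-marker macrophages. Ldha, which makes lactate, had 456.9 to 552.1 CPM in controls and 437.5 to 1101 in anemia, with anemia 2 highest. Gapdh and Aldoa, glycolytic enzymes with the highest levels of the list, had fold changes of 0.66 (SE 0.23) and 0.85 (SE 0.34), and were at 4551 and 1873 CPM in anemia 2. Vegfa, Egln3 and Pgk1 were named after their values were seen.

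Whether the response differed between both macrophage sets was tested within mice, over 11827 genes. No gene was called by edgeR (0.0%), with 1010 at an unadjusted p under 0.05. DESeq2 called 23 and limma with voom called 2. For Pgk1 the difference of the log2 fold changes was -0.59 (SE 0.20, edgeR adjusted p = 0.353) and for Vegfa -0.91 (SE 0.56, adjusted p = 0.693), so edgeR called both genes in Kupffer-marker macrophages and did not call the difference. Pgk1 was among the 23 genes of DESeq2.

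Arg1, an enzyme of arginine breakdown, was in no list. It had 24.4, 33.2, 13.5, 31.7, 14.1 and 8.88 CPM in controls 1 to 6 and 75.4, 58.7, 68.5, 131.0, 28.2 and 91.7 CPM in anemia 1 to 6. All anemia mice except anemia 5 were above all controls, whose values again rest on few UMIs. The log2 fold change was 1.88 (SE 0.38, edgeR adjusted p = 0.126), and Arg1 was among the 8 genes called by DESeq2. It was named after its values were seen, and liver cells other than macrophages also use this gene.

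Iron and heme genes of the marker-negative cells lay on both sides of 0. Of 23 tested, 14 had a fold change above 0 and 9 below, with a median of 0.10, and 0.02 without anemia 2 and anemia 3. Hmox1 had 133.2 to 342.7 CPM in controls and 175.9 to 403.2 CPM in anemia (log2 0.26, SE 0.26), and Ftl1, the ferritin light chain, 5985 to 9043 against 6540 to 7950 CPM (log2 0.03, SE 0.16). The erythroblastic island list, with genes that macrophages use to hold red cell precursors, had a median of 0.21 over 10 genes, and 0.21 over 8 without both mice. Adgre1, which encodes the macrophage antigen F4/80, had 310.8, 454.4 and 512.6 CPM in controls (lowest, median, highest) and 471.7, 568.1 and 672.2 CPM in anemia. All anemia mice except anemia 4 lay above all controls (log2 0.42, SE 0.17, edgeR adjusted p = 0.931).

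Inflammatory mediators had a fold change above 0 in 24 of 25 genes, with a median of 0.36, and 0.40 without anemia 2 and anemia 3. None was called. Cxcl2 had 2717, 5493 and 8574 CPM in controls (lowest, median, highest) and 1910, 5882 and 12788 CPM in anemia, with the lowest value in anemia 2 and the highest in anemia 6. Ccl6, a macrophage chemokine, and Nfkbia, an inhibitor of NF-kB, had log2 fold changes of 0.31 (SE 0.35) and 0.22 (SE 0.22).

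Cell cycle genes had a fold change below 0 in 20 of 22, with a median of -0.49, and -0.86 without anemia 2 and anemia 3 over 15 genes. None was called. Stmn1, a microtubule regulator, had 42.3 to 229.8 CPM in controls and 28.2 to 94.4 CPM in anemia (log2 -0.71, SE 0.35), and Pcna, the sliding clamp of replication, 56.5 to 161.4 against 58.6 to 108.2 CPM (log2 -0.48, SE 0.25). MHC class II and dendritic genes had a median of -0.28 over 10 genes and -0.87 over 8 without anemia 2 and anemia 3, with Cd74 at 5933 to 26452 CPM in controls and 4225 to 18969 CPM in anemia (log2 -0.23, SE 0.41).

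Monocyte genes had a median of 1.15 over 10 genes and 0.16 over 6 genes without anemia 2 and anemia 3, since the other 4 passed the filter on low counts only with these mice. Of the 9022 genes tested with both mice, 6262 also passed it without them. Fn1 had 920.8, 1870 and 4001 CPM in controls (lowest, median, highest) and 88.1, 2072 and 6517 CPM in anemia (log2 0.38, SE 0.60), so anemia held both the lowest and the highest mouse. The Kupffer genes outside the rule had a median of 0.10 over 14 genes, tissue macrophage genes -0.07 over 16, pan-macrophage genes 0.34 over 15, complement genes 0.31 over 15, and efferocytosis and lysosome genes -0.03 over 23. Lipid and cholesterol genes had a median of 0.08 over 21, metallothionein and antioxidant genes 0.20 over 15, and growth factor and matrix genes -0.03 over 15. Without anemia 2 and anemia 3, the median was 0.01 for Kupffer genes (-0.09 without anemia 2 alone), 0.21 for tissue macrophage genes, which turned its sign, 0.07 for pan-macrophage genes, 0.56 for complement genes and 0.04 for efferocytosis and lysosome genes. It was 0.03 for lipid and cholesterol genes, 0.09 for metallothionein and antioxidant genes and 0.08 for growth factor and matrix genes. None of these lists had a called gene.

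Transcripts of other cells differed between the mice. Neutrophil genes summed to 42.7 to 127.9 CPM in 5 controls, 4036 CPM in control 4 and 83.6 to 5266 CPM in anemia. All 9 tested genes were above 0, with a median of 1.31, and 7 of them also passed the filter on low counts without anemia 2 and anemia 3. Anemia held 8068442 of the 9077092 UMIs of the marker-negative cells, so the count of 9 can partly restate the filter. Stellate cell genes had a median of 1.23 over 5 genes, endothelial genes -0.79 over 5, NK and T cell genes -1.08 over 5, B cell genes -0.34 over 4 and erythroid genes 0.96 over 2, with no call, and no platelet gene had enough UMIs to be tested. Without anemia 2 and anemia 3 these medians were 1.17 for neutrophil, 1.59 for stellate cell, -1.12 for endothelial, -1.81 for NK and T cell and -0.38 for B cell genes, and no erythroid gene could be tested. The part of these transcripts in the values above was not tested. Adult globins, which the rule used, are given without a test: Hbb-bs had 225.3 to 579.1 CPM in controls and 919.8 to 1567 CPM in anemia, and its UMIs were found in 78.3% of B cells.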

How the data were processed

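Whole livers were dissociated with enzymes, and single cells were profiled by 10x Genomics 3' libraries, with kit version 2 in the labels' protocol and 3.1 in the series' design text. The authors aligned the reads with Cell Ranger (7.0.0 in the file headers) to mm10 and deposited, for each of the 12 mice, a matrix of raw counts of UMIs per gene and barcode, with barcode and gene tables as other text; Seurat appears in their notes for later steps. No barcode annotation was used.

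The members and the gene lists were chosen with earlier results of these data known. Each cell was tested by the rule on its raw counts. Shares of the 12 mice were compared with the Mann-Whitney test (exact, two-sided), and p-values were adjusted by Benjamini and Hochberg over 7 shares, of which 1 is not reported here. The UMIs of members, and of Kupffer-marker cells, were summed per mouse, and genes averaging 5 UMIs or more per mouse, without mitochondrial and ribosomal protein genes, were tested with edgeR 4.0.16 (quasi-likelihood, TMM; R 4.3.3); DESeq2 1.42.0 and limma 3.58.1 (voom with quality weights) were alternatives. The difference in response between both sets was an interaction within mouse. The fit was tested on simulated counts. Ratios to Kupffer-marker cells used 10 CPM as pseudocount.

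Named genes were called genes, the genes of highest level of each list (3 per list), genes of the lists for the ratio to Kupffer-marker cells, and the 10 highest and 10 lowest ratios shared by 12 of 12 mice, of which 1 is left out as well; others are marked as named after their values were seen, as were Isg15, Ifit3 and Ifit1. The members of a mouse summed to 112611 to 5004434 UMIs, so values of low genes are less exact in controls. The mice of a group are separate animals, but litters are not identified. Replicate numbers were checked for pairing by the correlation of same-numbered mice about their group means, which ran from -0.22 to 0.32, so they were not treated as pairs. Y-linked RNA was present in 2 control and 4 anemia mice. Overlapping or near-identical genes (Hba-a1 and Hba-a2, the Stfa and Cstdc family) may share reads. Alternatives covered depth, thresholds, thinning, purity, tools, filters and left-out mice.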

Additional observations from a re-analysis of the deposited data

Results flagged for a closer look

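In a group of 6 mice, a value was marked when its gap to the nearest other mouse took up an unusually large part of the group's range (Dixon's test). Over 144 group tests, of shares and of 66 named genes in both groups, 20 values were marked, where chance would mark about 1 in 20.

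The share of kept cells that were marker-negative macrophages was 6.39% in anemia 2, against 2.19% in the next mouse. In control 3, Alas2, the first enzyme of heme synthesis in red cell precursors, was at 9.01 CPM in these cells, with 0 in the other controls. The marker-negative cells of control 3 summed to 221964 UMIs, so this level rests on few UMIs.

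Genes of other liver and blood cells made up much of the rest. Control 1 had the granzyme genes Gzma at 286.3 and Gzmb at 207.1 CPM, and the collagen gene Col1a2 at 73.1 CPM. Its Ccl5 was at 1645.0 CPM, and 9 of its 13 cells with Ccl5 had no UMI of Nkg7, Cd3g, Cd3d and Trac. At least 1 Ccl5 UMI was also found in 21.3% of its Kupffer-marker macrophages and in 9.81% of its B cells. Control 4 had the neutrophil genes S100a8 at 1028.1, S100a9 at 1491.4 and Ngp at 526.7 CPM. Control 6, which had 24 of the cells, had the endothelial genes Dnase1l3 at 239.8 and Ptprb at 266.4 CPM, Ttr at 1278.7 CPM and the lowest Adgre1, at 310.8 CPM. Anemia 4 had Col1a2 at 199.2, the B cell gene Ebf1 at 136.3 and Ptprb at 31.4 CPM, and anemia 6 had Ecm1 at 775.2 CPM.

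The remaining values were genes that macrophages themselves use. Control 2 had H2-Eb1, a class II chain, at 2226.1 CPM, next to 962.6, and Irf7 at 531.6 CPM, next to 162.3. Anemia 2 had Ldha at 1101.4 CPM, next to 668.1. What set these mice apart was not tested.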

How the results depend on the processing

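The share of C1q macrophages that were marker-negative was higher in anemia under every alternative run. Its adjusted p missed the threshold with the replicate block, a sign-flip over same-numbered mice (mean difference 20.2 percentage points, exact p = 0.0312, the smallest it can give). The adjusted p also missed it without anemia 2 and anemia 3 (5.3), a setting chosen after seeing the data. With 1 mouse left out the difference ran from 6.33 to 20.9, and the adjusted p from 0.0202 to 0.0606. For the share of kept cells, the adjusted p passed the threshold with at least 3000 UMIs (1.09), after thinning (0.565), with high-globin cells out of the denominator (0.752), and without control 3 (0.559, adjusted p = 0.0202). With the replicate block it missed the threshold, with a mean difference of 1.52 percentage points (sign-flip, adjusted p = 0.109). With 1 mouse left out the difference ran from 0.132 to 0.965. The share with Kupffer genes changed sign with at least 3000 UMIs (-0.073), without anemia 2 and anemia 3 (-1.23) and with 1 mouse left out (-0.14 to 7.05).

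Genes called in the marker-negative cells numbered 8 by DESeq2, 11 with no filter on low counts, 11 with the replicate block and 3 under the purity condition (S100a8, S100a9 and Cstdc5). By edgeR the count was 0 at 8 or more C1q UMIs, 0 with Y-linked RNA as covariate and 0 without anemia 2 and anemia 3. There, 395 of 8631, 401 of 9022 and 463 of 6263 genes had an unadjusted p under 0.05 in edgeR. With 1 mouse left out, 0 to 4 genes were called. Genes called for a difference in response numbered 23 by DESeq2, 2 by limma, 113 with no filter, 1 at 3000 UMIs, 2 with the block, 8 without anemia 2 and anemia 3, and 0 to 4 with 1 mouse left out. The causes were not tested. With 24 to 51 marker-negative cells per control mouse, the spread of low genes includes much counting error.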
